A study of Homo sapiens with 16 samples.

Results

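The hypoxia-response genes followed here are 10 genes of the cellular response to low oxygen: HIF1A, ADM, BNIP3, BNIP3L, CA9, DDIT4, EGLN1, EGLN3, NDRG1 and P4HA1. They were found by gene symbol among the 18190 symbols of the expression table and carried 12 of its 20589 probes. For each gene the detected probe with the highest mean signal was used, which left 9 of the 10 genes to be tested among 12321 probes detected on at least 3 arrays. EGLN3 was below detection on every array and was not tested. SLC2A1, the glucose transporter GLUT1, and LDHA, a lactate dehydrogenase subunit, are also targets of the same transcription factor and were set beside the 10 genes.

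Hypoxia inducible factor (HIF) is a transcription factor made of an oxygen-labile alpha subunit, such as the product of HIF1A, and the stable partner encoded by ARNT. When oxygen is present, prolyl hydroxylases of the EGLN family mark the alpha subunit, the VHL protein binds the mark, and the subunit is degraded. When oxygen falls, the factor accumulates and activates genes of glucose uptake and glycolysis, mitophagy, pH control, collagen hydroxylation and vascular signaling. HIF activity is set largely at the protein level, which was not measured here, and growth factor receptors such as HER2 can also raise it when oxygen is plentiful.

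The cells were MCF10HER2, a line made from MCF10A nontransformed human breast epithelial cells by stable transduction with the HER2 oncogene (gene symbol ERBB2). The study asked which genes HER2 kinase activity regulates in them, by inhibiting it with CP724,714, a small molecule inhibitor of the kinase, at 1 µM. RNA came from parallel plates at 0 h (untreated) and every 3 h from 3 to 45 h of treatment, which gives 16 time points with 1 array each and 15 treated arrays. All plates had the same serum-free medium without insulin, with epidermal growth factor, hydrocortisone, transferrin and thyroid hormone. Fresh medium was given together with the inhibitor, and later untreated plates were not analysed here, so the effects of the inhibitor, of fresh medium and of time in culture cannot be told apart. With no replicates, the error of each value is the scatter of a gene's arrays about a smooth curve of time, and p-values measure that scatter alone.

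Between 10363 and 11436 probes were detected per array. The background signal was 136 to 149 on the 8 arrays from 0 to 21 h and 164 to 174 on the 8 arrays from 24 to 45 h, so this difference in background coincides with time. The arrays at 9 h and 18 h were dimmer than the rest. Of 9 epithelial markers, 8 were tested and 6 were detected on all arrays, whereas COL1A1, PDGFRB, VWF and CDH5, which mark fibroblasts, pericytes and endothelium, were detected on none. Of the other 4 markers of other cell types, COL3A1 was detected on 2 arrays, PTPRC on 7, and PECAM1 and CD14 on 16 at mean log2 signals of 8.16 and 8.25. The ERBB2 probe was detected on 7 arrays at a mean log2 signal of 7.98 and offers no check of the transduced gene.

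The members did not move as 1 group over the 45 h. By a moderated F-test of a spline of time in limma, 3 of 9 tested members (HIF1A, CA9 and DDIT4) were time-dependent, against 41.9% of all tested probes, a share near the background. HIF1A and DDIT4 fell along a straight line over 45 h (2 of 9 members, background 11.5%), and none rose (background 12.9%). The median linear change of the 9 members was -0.33 on the log2 scale, beside -0.00 for all tested probes. The plot of log2 signal by time shows 4 kinds of course. NDRG1, P4HA1, BNIP3 and BNIP3L had their highest array at 24 h, and ADM had a low array at 3 h. CA9 rose and returned, as EGLN1 did earlier, with its high from 3 to 9 h. HIF1A and DDIT4 had lower late than early levels.

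**Figure D1:**
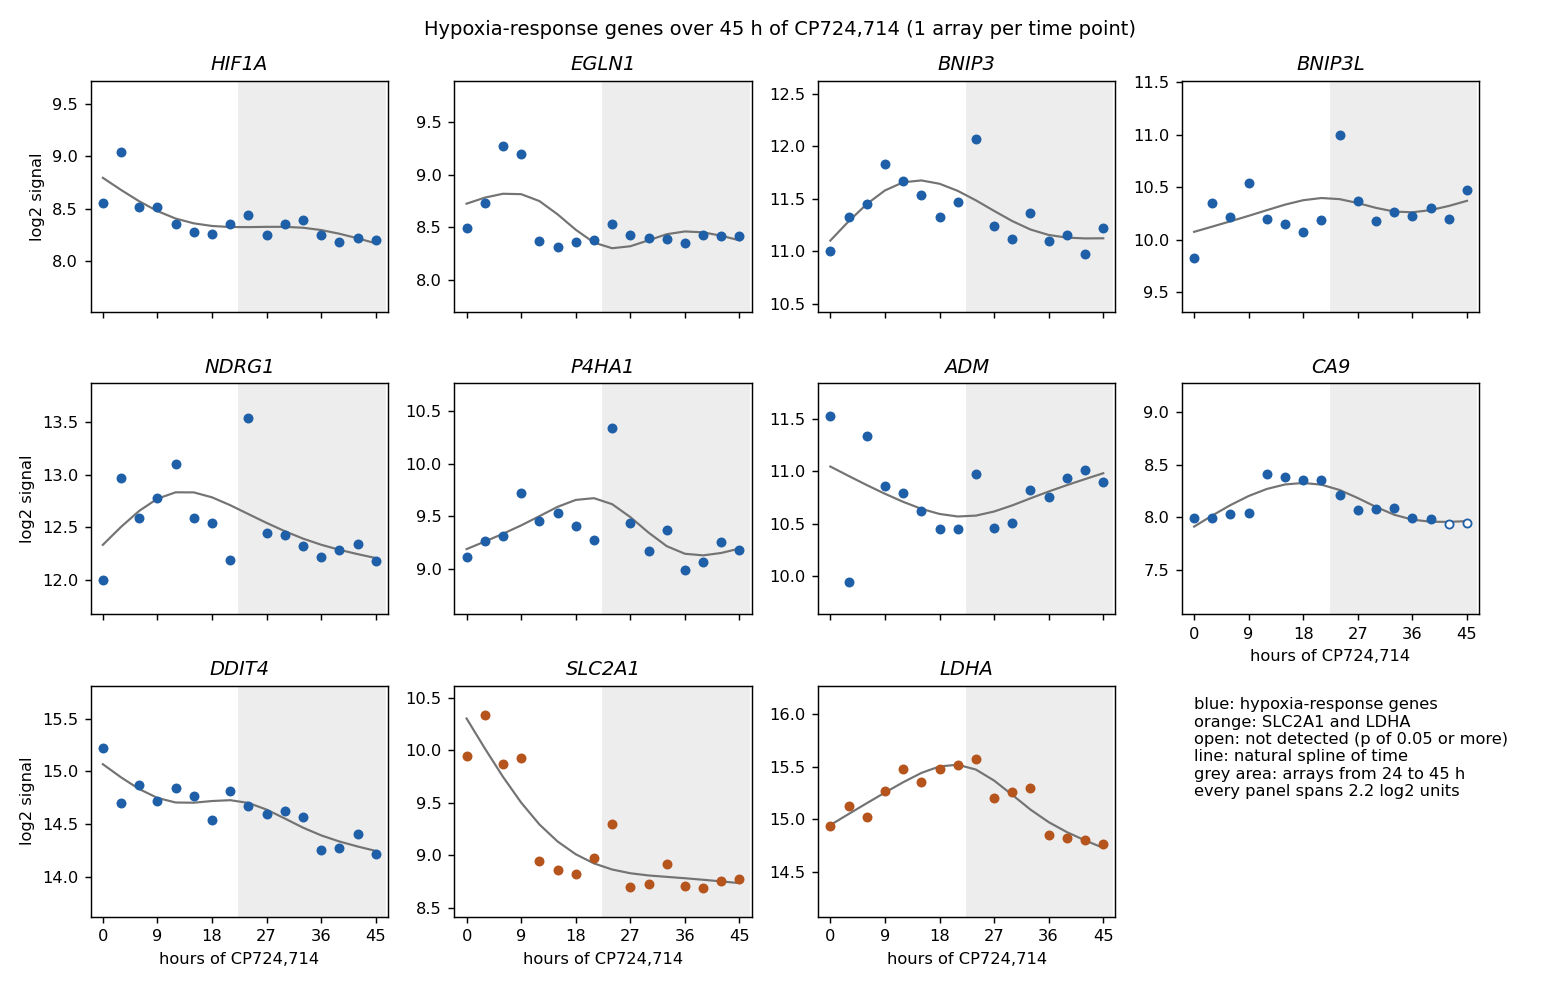
Normalized log2 signal (y axis) of the 9 tested hypoxia-response genes and of SLC2A1 and LDHA against hours of CP724,714 (x axis), 1 point per array, with the fitted spline as a line and undetected values as open points. NDRG1, P4HA1, BNIP3 and BNIP3L have their highest point at 24 h, CA9 lies highest from 12 to 21 h, and DDIT4 lies below its 0 h value on all 15 treated arrays.

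Of the members that sense oxygen, HIF1A encodes the regulated alpha subunit itself. The log2 signal of HIF1A stood at 8.55 in the untreated cells, peaked at 9.04 at 3 h and was 8.52 and 8.51 on the next 2 arrays. From 12 h on it lay between 8.19, at 39 h, and 8.44, at 24 h, so all 12 later arrays were below the first 4. The 3 h value was 1.40-fold above the untreated one, and the other 14 of 15 treated arrays lay below it. Over 45 h HIF1A fell by 0.47 (SE 0.12, limma adjusted p = 0.00648), with a limma adjusted p of 0.0127 for the spline. The fall was smaller with median scaling (-0.25), with array weights (-0.25) and without the 3 h array (-0.31), each with a limma adjusted p under 0.05, and the spline gave 0.0553 with median scaling. It was larger without background correction (-0.74, limma adjusted p = 0.0023). With the background estimated from the signals alone it was also larger (-0.88, limma adjusted p = 0.002). With the 2 sets of arrays that differ in background as a block, the linear change was -0.77 with a limma adjusted p of 0.0518 and the spline gave 0.0680, and within the arrays from 0 to 21 h and from 24 to 45 h it was -1.10 (adjusted p = 0.0862) and -0.44 (adjusted p = 0.0275) per 45 h.

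A second HIF1A probe gave a smaller change in the same direction, -0.14 (SE 0.06), with a limma adjusted p of 0.0843, so the call rests on the brighter probe. Its log2 signal ran from 8.06 at 15 h to 8.33 at 3 h with a median of 8.15, close to the lowest detected signals. HIF1A transcript therefore had its highest value at 3 h on both probes.

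EGLN1 encodes PHD2, the main oxygen-sensing prolyl hydroxylase acting on the alpha subunit. The first 4 arrays gave log2 signals of 8.50, 8.73, 9.27 and 9.19, and on the 12 arrays from 12 h on it ranged from 8.31 to 8.53. The arrays from 3 to 9 h thus did not overlap with the later ones, and 9 h was 1.77-fold above 12 h. Neither fit passed the threshold: the spline gave a limma adjusted p of 0.113 and the linear change was -0.47 (SE 0.19, limma adjusted p = 0.0844). Without the untreated array the spline of EGLN1 passed the threshold, with a limma adjusted p of 0.0281. SLC2A1 had log2 signals of 9.92 and 8.95 on the same pair of arrays, a 1.97-fold difference. EGLN3, which encodes the hydroxylase PHD3, stayed at log2 signals of 7.88 to 7.95 on all 16 arrays, with a lowest detection p-value of 0.0720, which gives it a bound and no course.

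NDRG1, P4HA1, BNIP3 and BNIP3L stood out at 24 h. NDRG1 is a stress-inducible cytoplasmic protein linked to growth arrest and differentiation, and P4HA1 encodes the catalytic subunit of collagen prolyl 4-hydroxylase. BNIP3 and BNIP3L (NIX) are related mitochondrial outer membrane proteins that act as receptors for mitophagy. Each of the 4 had its highest log2 signal of the 16 arrays at 24 h, a pattern noticed in the values of these genes, for which a measure was then chosen: at least 1.5-fold above both the 21 h and the 27 h array. It is given as a description, without a test.

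For NDRG1 the untreated array had a log2 signal of 12.00, followed by 12.97, 12.59, 12.78, 13.10, 12.58, 12.54 and 12.19 from 3 h to 21 h. It was 13.54 at 24 h, and then 12.45, 12.42, 12.32, 12.22, 12.29, 12.34 and 12.18 from 27 h to 45 h. The untreated array was thus the lowest of the 16, and the 24 h array was 2.56-fold above 21 h and 2.13-fold above 27 h. In the deposited intensities, before any normalization, NDRG1 read 5033 at 21 h, 13897 at 24 h and 6536 at 27 h.

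P4HA1 had log2 signals of 9.28 at 21 h, 10.35 at 24 h and 9.44 at 27 h, so that 24 h was 2.10-fold and 1.88-fold above its neighbours. On its other 15 arrays P4HA1 lay between 8.99, at 36 h, and 9.72, at 9 h. A second probe of P4HA1 was detected on 2 arrays and was not tested. The 24 h value of P4HA1 thus lay above all its other values by more than the residual SD of 0.29 about the curve.

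BNIP3 read 11.48, 12.07 and 11.24 at 21, 24 and 27 h, which put 24 h 1.51-fold and 1.77-fold above them. BNIP3L read 10.19, 11.00 and 10.37, for 1.75-fold and 1.54-fold. In the deposited intensities, 21, 24 and 27 h had the same order, with 3222, 5453 and 3019 for BNIP3 and 1491, 2911 and 1792 for BNIP3L. After normalization both genes also had a smaller high at 9 h, 11.84 for BNIP3 and 10.54 for BNIP3L, the second highest value of each. The deposited intensities did not show this high on the dimmer 9 h array. At 6, 9 and 12 h they were 2900, 2193 and 3246 for BNIP3 and 1426, 1036 and 1334 for BNIP3L.

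A rise of this size at 24 h was found for 19 of 12321 tested probes (0.154%), 4 of which belong to the members. More loosely, 24 h was the highest of the 16 arrays for 4.26% of tested probes and for 4 of 9 members. Just inside the limit were BNIP3 and UHRF1, each 0.59 above the higher neighbour on the log2 scale, and just outside it was PLOD2, a lysyl hydroxylase of collagen and another HIF target, at 0.58. The other probes above the limit included CDC14B (4.43-fold), RRM2 (1.89-fold), F3 (1.75-fold) and STC1 (1.68-fold), named after their values were seen. At the same time 18 probes lay at least 1.5-fold below both neighbours, none of them a member.

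Single-time highs of this size were also counted elsewhere: 83 probes at 3 h, 16 at 6 h and 21 at 9 h, but 0 at 15, 18 and 21 h, 1 at 27 h and 0 from 30 to 42 h. No member was among those at times other than 24 h. The 24 h array had the most detected probes of the 16, 11436, and is the first of the arrays with higher background. Whether the high values belong to the cells at 24 h or to that 1 array cannot be told apart with 1 array per time, and the part of the change in background was not tested. Without background correction, and likewise with the background estimated from the signals alone and an offset of 50, 2 of the 4 (NDRG1 and P4HA1) stayed above 1.5-fold. Of all tested probes, 0.0974% and 0.138% did so under these settings. The count also changed with the normalization. With cyclic loess 3 members passed (BNIP3L, NDRG1 and P4HA1), beside 0.154% of tested probes. With median scaling 5 members passed, ADM included, beside 0.519% of tested probes.

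**Figure D2:**
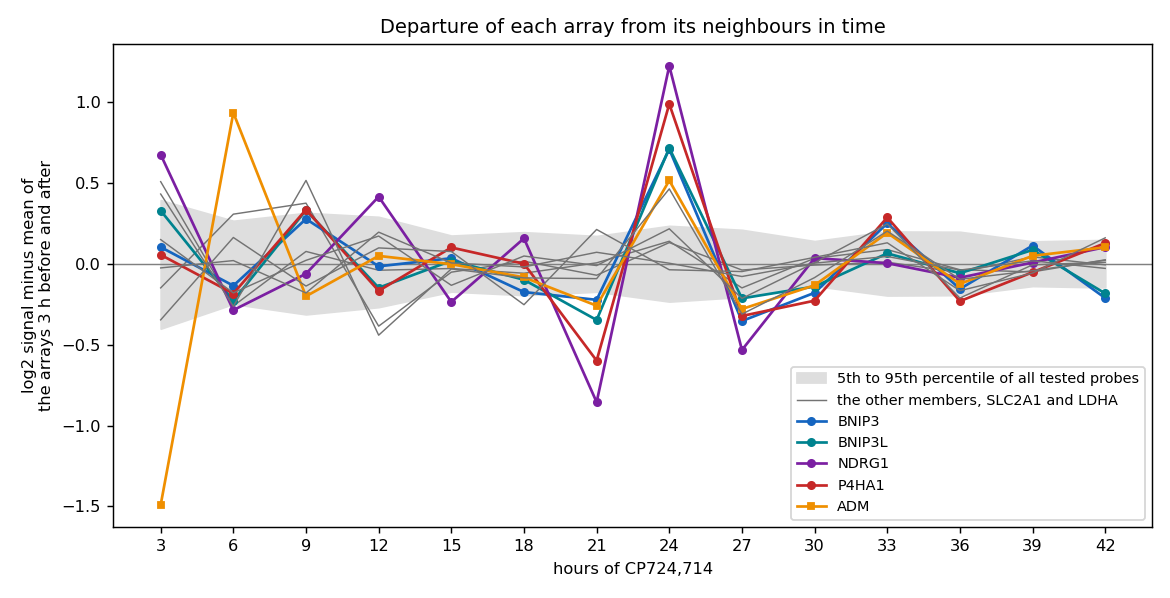
Departure of each array from the mean of the arrays 3 h before and after it (y axis, log2 signal) against hours of CP724,714 (x axis), for the members, SLC2A1 and LDHA, with the 5th to 95th percentile of all 12321 tested probes as a grey band. At 24 h NDRG1 (1.22), P4HA1 (0.99), BNIP3L (0.72), BNIP3 (0.71), ADM (0.52) and also SLC2A1 (0.46) lie above the band, which ends at 0.23. ADM lies furthest below the band at 3 h (-1.49).

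These 4 genes lay above their level on the 1 untreated array on most arrays, 24 h included: NDRG1 and BNIP3L on 15 of 15 treated arrays, BNIP3 on 14 and P4HA1 on 13. Set against the single untreated array by a fit that assumes it varies like the others, the differences were 0.57 (SE 0.30) for NDRG1, 0.49 (SE 0.23) for BNIP3L, 0.38 (SE 0.22) for BNIP3 and 0.27 (SE 0.27) for P4HA1. None passed the limma threshold, with adjusted p-values of 0.207, 0.159, 0.254 and 0.544. Across all tested probes 8.62% were called higher in the treated arrays. The 24 h array raised the scatter of these genes: without it BNIP3L passed as higher in the treated arrays (0.44, limma adjusted p = 0.0487), and BNIP3 and NDRG1 became time-dependent, with limma adjusted p-values of 0.00629 and 0.0179 for the spline. With it, the spline gave adjusted p-values of 0.0655 for BNIP3 and 0.287 for NDRG1.

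Over the 16 arrays the courses of BNIP3 and P4HA1 were alike (Pearson r = 0.88), as were those of NDRG1 with P4HA1 (0.81) and with BNIP3 (0.81), while BNIP3L correlated at 0.68 with BNIP3, 0.74 with P4HA1 and 0.67 with NDRG1. These values describe 16 arrays that share the high value at 24 h, which weighs on each of them. The probes of other genes nearest in course were AGPS and P4HA1 for BNIP3 (0.89 and 0.88), BNIP3 and SPPL2A for P4HA1 (0.88 and 0.83), P4HA1, in the second place, for NDRG1 (0.81), and PRKAG2 and PIK3CB for BNIP3L (0.84 and 0.82). P4HA1 and BNIP3 were thus among the 2 nearest of each other among all tested probes.

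HIF binds DNA at a short core, written ACGTG or GCGTG here. RefSeq promoter windows (GRCh38.p14), reaching from 250 bases before to 50 bases after a transcription start, were searched for both on both strands. There were 9 windows for 8 of the 10 members, 2 of them for HIF1A, and 7 windows held at least 1 copy, where 48.4% of all 35116 windows did. ACGTG was found in 5 of the 9 member windows and in 21.4% of all windows, and GCGTG in 4 of 9 and in 36.5%. CACGTG holds ACGTG on both strands and so counts as 2 copies. A match describes the letters of the window and is not a measured binding site.

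The 250 bases before the start are shown for BNIP3 and P4HA1, the pair of members whose courses were most alike, and for CA9, whose course differed from theirs. Capitals mark each copy of either core or of its reverse complement. BNIP3 lies on the minus strand at chr10:131981924-131982173, P4HA1 on the minus strand at chr10:73096867-73097116, and CA9 on the plus strand at chr9:35673678-35673927, each written 5′ to 3′ along its gene.
BNIP3: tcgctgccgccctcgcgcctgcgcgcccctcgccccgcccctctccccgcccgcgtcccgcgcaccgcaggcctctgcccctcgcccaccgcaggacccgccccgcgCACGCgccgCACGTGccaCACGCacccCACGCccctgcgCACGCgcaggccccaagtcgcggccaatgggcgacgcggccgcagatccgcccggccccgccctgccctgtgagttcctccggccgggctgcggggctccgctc
P4HA1: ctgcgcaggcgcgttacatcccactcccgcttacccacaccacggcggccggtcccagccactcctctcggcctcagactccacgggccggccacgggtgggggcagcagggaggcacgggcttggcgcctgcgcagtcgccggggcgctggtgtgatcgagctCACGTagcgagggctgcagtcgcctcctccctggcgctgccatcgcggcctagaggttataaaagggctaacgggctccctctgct
CA9: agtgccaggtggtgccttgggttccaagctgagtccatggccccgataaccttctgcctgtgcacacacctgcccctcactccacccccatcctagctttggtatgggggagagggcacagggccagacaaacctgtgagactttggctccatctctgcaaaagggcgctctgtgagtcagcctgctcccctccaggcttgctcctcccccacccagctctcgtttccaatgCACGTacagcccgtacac
The window of BNIP3 held 6 copies, 2 of ACGTG and 4 of GCGTG, which began between positions -143 and -104 from the start. Those of P4HA1 and CA9 held 1 copy of ACGTG each, starting at positions -86 and -18. The window of EGLN3, which was not detected, held no copy.

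ADM encodes adrenomedullin, a secreted vasodilator peptide. Its log2 signal was 11.53 before treatment and 9.94 at 3 h, then 11.34 and 10.86 on the following 2 arrays, so that the 3 h array was 3.01-fold below the untreated one and 6 h was 2.63-fold above 3 h. From 12 h on it ran from 10.45 to 11.02, at 42 h, and all 15 treated arrays were below the untreated array. At 3 h, 68 probes lay at least 1.5-fold below both neighbouring arrays, and ADM was the 1 member among them.

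The calls of ADM depended on single arrays and on the scaling. With all 16 arrays, ADM was not time-dependent (limma adjusted p = 0.622 for the spline), and the treated minus untreated difference was -0.81 (SE 0.30, limma adjusted p = 0.0667). Without the 3 h array, the spline gave a limma adjusted p of 0.00520, the treated arrays differed from the untreated one by -0.75 (adjusted p = 0.00360), and the slope from 24 to 45 h exceeded that from 0 to 21 h by 1.47 (adjusted p = 0.00316). The difference from the untreated array, which is 1 array at the start of the series, also passed without the 6 h array (-0.85, limma adjusted p = 0.0140), with cyclic loess (-0.90, adjusted p = 0.0429) and with array weights (-0.74, adjusted p = 0.00819). Within the arrays from 27 to 45 h ADM rose at a rate of 1.29 per 45 h (limma adjusted p = 0.0121), a range of arrays chosen after the values were seen. The courses nearest to that of ADM were RUNDC1 (r = 0.85) and SGK (0.85).

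CA9 encodes carbonic anhydrase IX, a cell surface enzyme that helps tumor cells export acid and is widely used as a marker of hypoxia. Its log2 signal was low, at 7.99, 7.99, 8.04 and 8.04 from 0 to 9 h, with detection p-values of 0.0113 to 0.0240. It stood at 8.41, 8.39, 8.35 and 8.36 from 12 to 21 h, each with a detection p-value of 0.00141. It then went from 8.22 at 24 h to 7.95 at 45 h. The probe was detected on 14 of 16 arrays and missed on those at 42 h and 45 h, where its level is a bound. The 4 arrays from 12 to 21 h were thus above all the others, and the step from 9 h to 12 h was 1.29-fold after normalization. In the deposited intensities CA9 read 202 on the dimmer 9 h array and 411 at 12 h.

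CA9 was time-dependent (limma adjusted p = 0.000396 for the spline). A line through the first 8 arrays rose by 0.48 over 21 h (SE 0.08, limma adjusted p = 0.000320). The values formed a step, with a mean of 8.02 (SD 0.03) from 0 to 9 h and 8.38 (SD 0.03) from 12 to 21 h. This step falls where the sets of 4 time points part, so a step between arrays and a change in the cells cannot be told apart. Over the 21 h of the last 8 arrays the change of CA9 was -0.24 (SE 0.08, limma adjusted p = 0.0745). The later minus the earlier slope was -0.72 (SE 0.11, limma adjusted p = 0.000765). Its size depended on the background correction, being -1.997 without one and -2.72 with the background estimated from the signals alone. CA9 was the 1 member of 9 with a called difference below 0, against 12.1% of tested probes. No member had a called difference above 0, against 12.7% of tested probes. With the 2 sets of arrays as a block CA9 remained time-dependent (limma adjusted p = 0.00153), and with sets of 4 time points as a block it was not (0.285). LDHA turned in the same direction, by -1.38 (SE 0.16, limma adjusted p = 0.000359) and by -1.37 without background correction, and the courses of CA9 and LDHA correlated at 0.84. The probes nearest to CA9 were TNFRSF6B (0.95) and MLZE (0.95).

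P4HA1, BNIP3 and NDRG1 also had differences in slope below 0, at -0.998 (SE 0.384), -0.89 (SE 0.37) and -0.84 (SE 0.49). None passed the limma threshold, with adjusted p-values of 0.0654, 0.0846 and 0.220. Without the 24 h array they were -0.41, -0.42 and -0.21. The plot of slopes sets both periods side by side. Fitted alone, the arrays from 24 to 45 h gave 6 of 9 members as falling (HIF1A, BNIP3, CA9, DDIT4, NDRG1 and P4HA1), where 12.8% of all probes fell. Without the 24 h array, from 27 to 45 h, 2 of 9 fell (CA9 and DDIT4), where 10.6% of all probes did, so the calls of the other 4 rested on the array at 24 h. With the spread taken from all 16 arrays, as in the plot of slopes, none of the 6 was called from 24 to 45 h, with limma adjusted p-values of 0.0605 for DDIT4, 0.0745 for CA9, 0.0923 for P4HA1, 0.149 for NDRG1 and 0.187 for BNIP3, and a higher one for HIF1A.

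**Figure D3:**
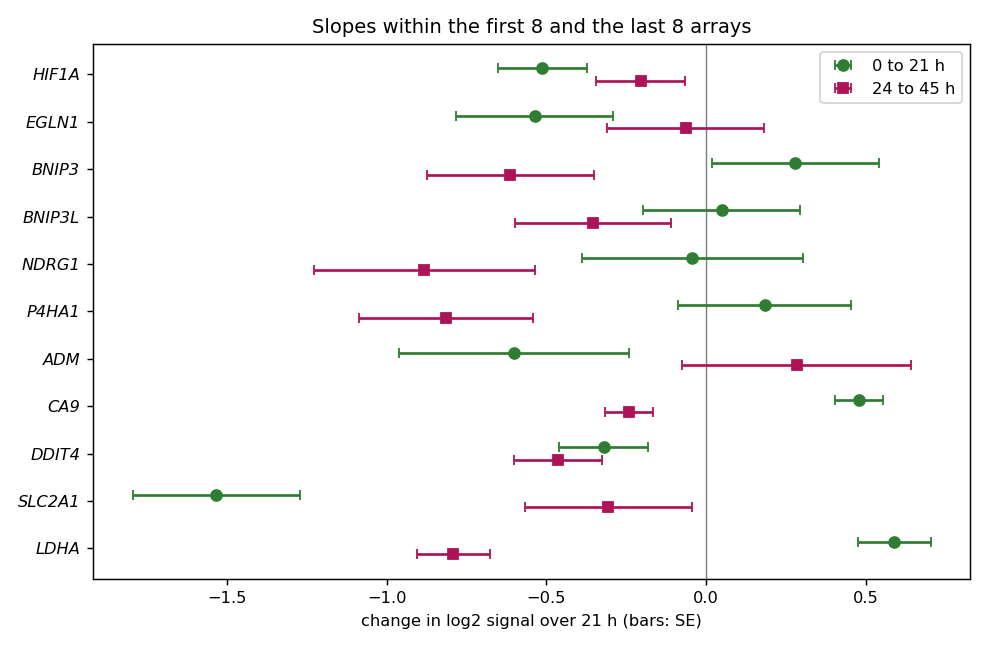
Change in log2 signal over 21 h (x axis) fitted separately within the first 8 arrays (0 to 21 h, circles) and the last 8 arrays (24 to 45 h, squares) for the 9 tested members, SLC2A1 and LDHA, with bars of 1 SE. CA9 goes from 0.48 to -0.24 and LDHA from 0.59 to -0.79, whereas SLC2A1 goes from -1.53 to -0.31.

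DDIT4 encodes REDD1, an inhibitor of the growth-promoting kinase complex mTORC1 that responds to hypoxia, glucocorticoid and energy stress. Untreated cells had a log2 signal of 15.22, and over the 15 treated arrays it ran from 14.21 at 45 h to 14.87 at 6 h. All treated arrays lay below the untreated one, and the 4 arrays from 36 to 45 h lay below all the earlier ones. From 0 to 45 h DDIT4 fell 2.01-fold.

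The line fitted to DDIT4 fell by 0.71 (SE 0.10, limma adjusted p = 9.3e-05) and its spline gave a limma adjusted p of 0.000445. The treated minus untreated difference was -0.63 (SE 0.10, limma adjusted p = 0.000369), and DDIT4 was the 1 member of 9 called lower, against 10.3% of tested probes. The untreated group is 1 array at the start of the series whose own spread is unknown, so this difference cannot be told apart from that 1 array or from time. The change was below 0 in both sets of arrays, at -0.69 (limma adjusted p = 0.188) from 0 to 21 h and -0.99 (adjusted p = 0.00202) from 24 to 45 h per 45 h, and at -0.84 (adjusted p = 0.0275) with the sets as a block. When arrays were scaled to a common median in place of quantile normalization, the linear change was -0.53 with a limma adjusted p of 0.0666 and the spline gave 0.101. With sets of 4 time points as a block neither passed (0.608 and 0.384). The nearest courses were those of ADORA2B (r = 0.95), an adenosine receptor, and PLAU (0.92), the urokinase plasminogen activator.

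SLC2A1 and LDHA, the genes set beside the members, took different courses from each other (r = 0.01 over 16 arrays). SLC2A1 fell by 1.39 over 45 h (-1.39, SE 0.26, limma adjusted p = 0.000678), most of it between 9 h and 12 h, and by 0.59 with array weights. The linear change of LDHA was -0.34 (SE 0.19, limma adjusted p = 0.217) after a rise and a fall. With sets of 4 time points as a block the linear change of SLC2A1 was -0.50 (limma adjusted p = 0.792). Under that block the limma adjusted p of the spline was 0.846 for SLC2A1 and 0.389 for LDHA. All 9 tested members had a slope above that of SLC2A1, by 0.68 for DDIT4 to 1.57 for BNIP3L. However, so did 96.8% of all tested probes, and 0.211% had a slope below it, so this separates SLC2A1 from most of the array and says nothing particular about the members. None of the 9 was called as differing from LDHA in slope, where 10.4% of tested probes lay above and 0.836% below it. The rise and fall of LDHA counts as error about these lines, so the lack of calls does not show a shared course. SLC2A1 itself, at -1.05 relative to LDHA (SE 0.35, limma adjusted p = 0.0540), was not called. The 95% intervals of the differences from LDHA ran from -0.43 to 0.45 for BNIP3 and from -0.61 to 0.45 for NDRG1. Among the members that of BNIP3L, from 0.03 to 1.01 (limma adjusted p = 0.191), was the farthest above 0. With median scaling, and with cyclic loess, 1 member was called above LDHA, and the share of all probes was not counted under these settings.

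HIF1A had a course like that of SLC2A1 (r = 0.89), and EGLN1 a looser one (0.74). Both values are descriptions over 16 arrays of 1 series. The nearest probes to HIF1A were LARP1 (0.96) and SLC30A1 (0.95), those to EGLN1 were SPINK1 (0.97) and WDR68 (0.95), and those to SLC2A1 were SLC3A2 (0.98) and SLC7A5 (0.97), which together form an amino acid exchanger.

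The wider pathway was described with gene lists drawn up from general knowledge. Of 12 tested genes of oxygen sensing, 6 were time-dependent (background 41.9%), 2 rose (background 12.9%) and 2 fell (background 11.5%). CITED2, a HIF target that competes with the factor for its coactivator, rose by 1.72 (SE 0.33, limma adjusted p = 0.00101) from 11.42 at 0 h to 12.55 at 45 h. EGLN2, which encodes the hydroxylase PHD1, fell by 0.62 (SE 0.18, limma adjusted p = 0.0160), as HIF1A did. EPAS1, which encodes the related alpha subunit HIF-2 alpha, had no called linear trend (0.28, SE 0.22), but its later slope exceeded its earlier one by 1.35 (SE 0.25, limma adjusted p = 0.00208). VHL did not pass the spline threshold (limma adjusted p = 0.199) and ARNT rose by 0.10 (SE 0.03, limma adjusted p = 0.0251).

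Among HIF targets of glucose metabolism, 16 of 23 tested genes were time-dependent (background 41.9%), and over 45 h 7 fell (background 11.5%) and 1 rose (background 12.9%). The later slope was called below the earlier one in 12 (background 12.1%) and above it in 1 (background 12.7%). The median linear change of the list was -0.19. PGAM1, a phosphoglycerate mutase, fell by 1.03 (SE 0.19, limma adjusted p = 0.000635) and PFKFB4, a regulator of glycolytic flux, fell by 0.74 (SE 0.16, limma adjusted p = 0.00294). The difference in slope was -2.91 for the aldolase ALDOC (limma adjusted p = 0.00134) and -1.70 for the phosphofructokinase PFKP (adjusted p = 0.00277). In this list 5 of 23 genes, LDHA among them, were highest at 24 h, and 0 reached 1.5-fold over both neighbours.

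Of the 29 tested genes in the list of other HIF targets, which holds 7 of the members, 14 were time-dependent, 8 fell and 1 rose. Leaving the members out, 12 of 22 were time-dependent (background 41.9%), 7 fell (background 11.5%) and 1 rose (background 12.9%), with a later slope below the earlier one in 4 (background 12.1%) and above it in 7 (background 12.7%). IGFBP3, an insulin-like growth factor binding protein, fell by 2.58 (SE 0.54, limma adjusted p = 0.00189), and BHLHE40, a transcriptional repressor, fell by 1.60 (SE 0.41, limma adjusted p = 0.00783). The heme oxygenase HMOX1 fell by 1.29 (SE 0.37, limma adjusted p = 0.0172). VEGFA, a classical HIF target, was detected on 11 arrays and did not pass the spline threshold (limma adjusted p = 0.483).

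**Figure D4:**
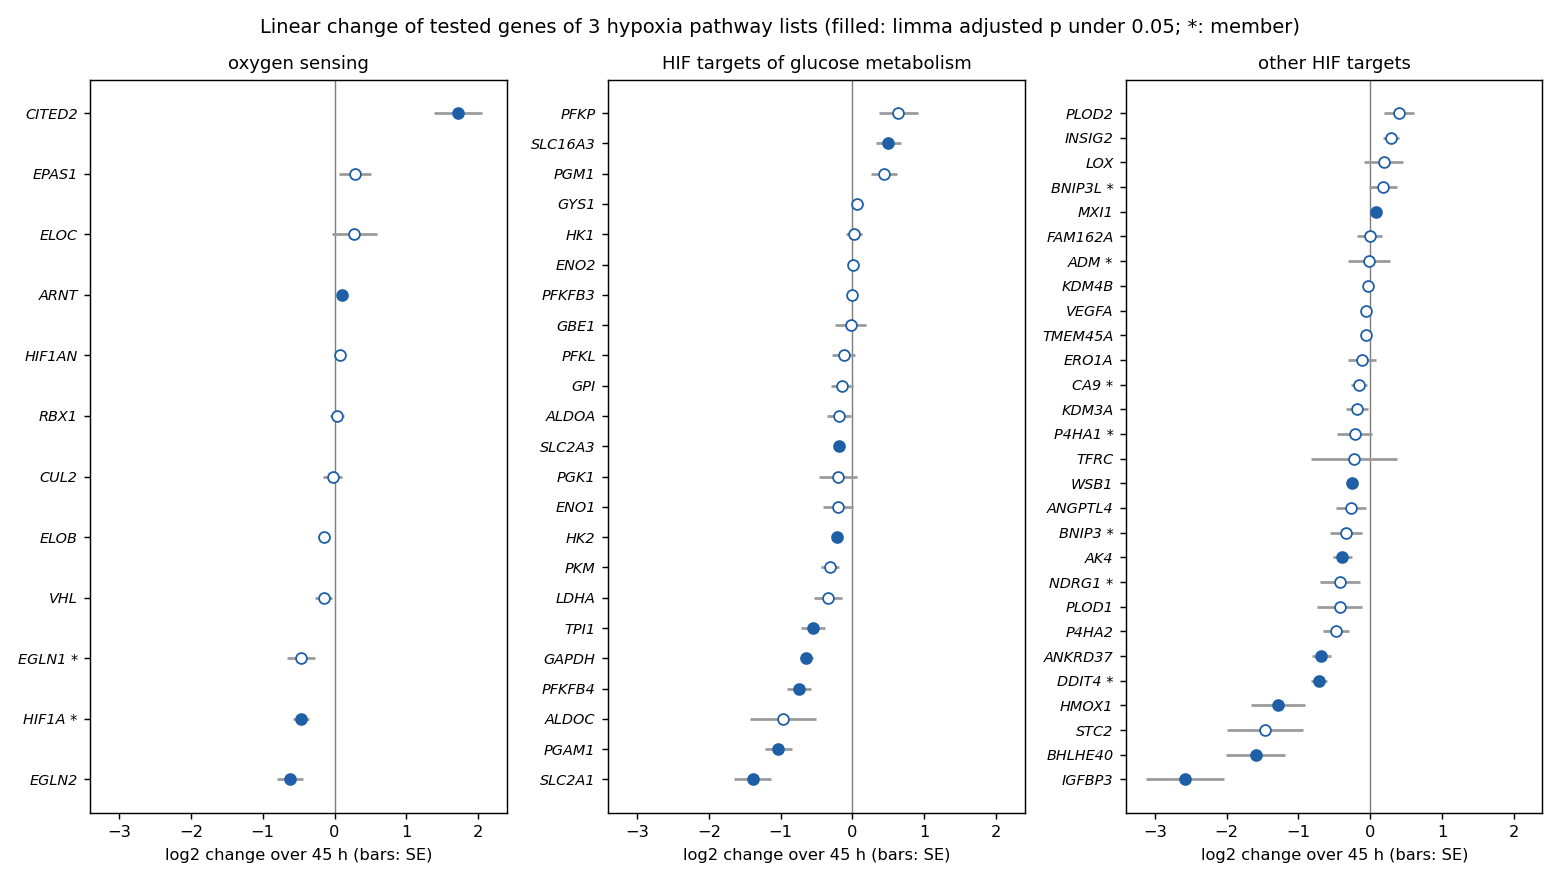
Linear change in log2 signal over 45 h (x axis) with bars of 1 SE for tested genes of 3 hypoxia pathway lists, with filled points where the limma adjusted p was under 0.05 and an asterisk at each member. DDIT4 (-0.71) and HIF1A (-0.47) are the filled members, while IGFBP3 (-2.58) has the largest fall and CITED2 (1.72) the largest rise of the genes shown.

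DDIT4 is also a target of ATF4, the transcription factor of amino acid and stress responses, and acts on mTORC1, so both were listed. All 6 tested genes of the ATF4 list were time-dependent (background 41.9%), 3 fell along a line (background 11.5%) and 6 were lower in the treated arrays than in the 1 untreated array (background 10.3%). PSAT1, an enzyme of serine synthesis, fell by 4.27 (SE 0.39, limma adjusted p = 8.74e-07), the asparagine synthetase ASNS fell by 3.88 (SE 0.47), and the pseudokinase TRIB3 fell by 3.04 (SE 0.50). Of 8 tested genes in the mTORC1 list 5 were time-dependent (background 41.9%): TSC2, a brake on the complex, rose by 0.29 (SE 0.07, limma adjusted p = 0.00874), MTOR itself fell by 0.17 (SE 0.05, limma adjusted p = 0.00937), and SESN1 had a linear change of -0.65 (SE 0.27, limma adjusted p = 0.0871).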

How the data were processed

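RNA of 16 cultures was measured on Illumina human Ref-8 v2 beadchips. The authors deposited 2 columns per array, the probe intensity before normalization and its detection p-value, which compares a probe with the negative controls. Software and versions behind these values are not given in the sources used here. In R 4.3.3 with limma 3.58.1, intensities were background-corrected with normexp using negative control moments that limma infers from detection (offset 16), quantile normalized and taken to log2. The changes of the dim probes of HIF1A and CA9 were smaller after this correction than without one. The linear change of HIF1A was -0.47 against -0.74 without correction, and the slope difference of CA9 was -0.72 against -1.997. With the background estimated from the signals alone and an offset of 50 they were -0.88 and -2.72. Tests took in probes detected (p under 0.05) on at least 3 arrays and left out 40.2%. Fits (lmFit, eBayes with a trend) used a natural spline (4 degrees of freedom), a line in time, separate lines for 0 to 21 h and 24 to 45 h, and a centred spline with 3 degrees of freedom for treated against untreated. P-values were adjusted by Benjamini-Hochberg over all tested probes at 0.05. Trends relative to SLC2A1 and LDHA were fitted to log ratios. The steps were tested on simulated data. The number of arrays limits the precision. The members, lists, tests and measures were chosen with earlier results of these data known.

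Named genes were the members, SLC2A1 and LDHA, the genes of the oxygen sensing list, up to 5 genes with the largest linear change among time-dependent genes of each other list, and the 2 probes nearest in course to each member. Others are named as chosen after their values were seen or to answer a count. Some genes that this rule names are not reported here, in the text or the plots, but stay in the counts. Several genes, among them ELOB, ELOC, VEGFA, BHLHE40 and MTOR, were matched under older symbols, and RPTOR was not matched. Promoter sequences are RefSeq's (GRCh38.p14). Alternatives changed the background correction, normalization, filter, weights, blocks, spline and arrays.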

Additional observations from a re-analysis of the deposited data

Results flagged for a closer look

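The change of slope between the first 8 and the last 8 arrays was tested for each gene as a difference in log2 change per 21 h, and it passed the limma threshold for 1 member and for both genes set beside the members. For CA9 it was -0.72 (SE 0.11, limma adjusted p = 0.000765), and -1.997 without background correction. For LDHA it was -1.38 (SE 0.16, limma adjusted p = 0.000359), and for SLC2A1, whose slope was -1.53 in the first 8 arrays and -0.31 in the last 8, it was 1.23 (SE 0.37, limma adjusted p = 0.0226). For SLC2A1 the call was lost without the 3 h array (1.04, adjusted p = 0.0539), the 27 h array (1.096, adjusted p = 0.0558) or the 45 h array (1.12, adjusted p = 0.0762), and with median scaling (0.71, adjusted p = 0.172). The 2 periods also differ in background signal, and the part of this in the differences was not tested. With 1 array per time point, no group had enough samples for a search for single arrays apart from the rest.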

How the results depend on the processing

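No paired analysis was possible because there were no replicates to pair. Under the alternatives, 329 of 351 values of single genes that had passed the threshold kept their direction and call, 21 kept the direction and missed the threshold, and 1 turned (SLC2A1, from 27 to 45 h alone). With median scaling 1 member was time-dependent (CA9, background 36%), 1 fell (HIF1A, background 4.75%) and 2 had a later slope below the earlier one (background 10.9%). Median scaling also moved the share of linear calls that rose from 52.7% to 80.5% of all probes called. Cyclic loess gave 2 members with a later slope below the earlier one (background 13.6%). Under each of these scalings 1 member lay above LDHA, where the share of all probes was not counted. Array weights gave 5 falling members (background 18.5%). With the 2 sets of arrays as a block 5 members were time-dependent (background 29%), BNIP3, NDRG1 and P4HA1 gaining the call and HIF1A losing it, and 1 fell (background 2.78%). With sets of 4 time points as a block HIF1A, CA9 and DDIT4 lost the spline call (limma adjusted p = 0.967, 0.285 and 0.384), EGLN1, NDRG1 and P4HA1 gained it (0.00837, 0.0406 and 0.0477, background 9.81%), and 0 fell, as did 0 of all probes. Among probes detected on all arrays, which leave out CA9, 0 members had a called slope difference (background 15.6% below 0 and 17.1% above it). Without the arrays at 9 h and 18 h, 2 had one below 0 (background 12.9%). From 0 to 21 h alone 1 member rose (background 5.79%) and 0 fell (background 5.49%), and from 24 to 45 h alone 6 fell (background 12.8%). From 27 to 45 h alone 1 rose (background 9.51%) and 2 fell (background 10.6%). Without background correction 2 members were 1.5-fold above both neighbours at 24 h (background 0.0974%). So were 2 with the background estimated from the signals alone with an offset of 50 (background 0.138%). With cyclic loess 3 members were (background 0.154%), and with median scaling 5 members were (background 0.519%).

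With single arrays left out in turn, time-dependent members numbered 3 to 5, while the background ran from 33.7% to 48%. Later slopes below the earlier numbered 1 to 3 and above it 0 to 1. The most time-dependent members came without the 24 h array (5, background 43%), and the most slopes below without the 9 h array (3, background 14.1%). A slope above was called for 1 member without the 0 h array (background 16.7%) and for 1 without the 3 h array (background 10.2%).

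Signs turned for values that had not passed the threshold. The linear change of ADM was 0.39 with median scaling, 0.33 with weights, 0.61 from 24 to 45 h, 1.29 from 27 to 45 h, and -0.31 to 0.31 with single arrays left out. That of BNIP3 was 0.0696 and that of P4HA1 0.17 with median scaling, and 0.60 and 0.39 from 0 to 21 h. That of BNIP3L was -0.33 with the block and -0.76 from 24 to 45 h. That of CA9 was 0.26 with the block and 1.03 from 0 to 21 h. For EGLN1 it was 0.91 with sets of 4 and 0.0357 from 27 to 45 h, and for LDHA 0.0390 with sets of 4 and 1.26 from 0 to 21 h. For SLC2A1, which had passed the threshold, it was 0.0385 from 27 to 45 h. The slope difference of DDIT4 was 0.17 with loess and -0.40 to 0.0253 with single arrays left out, and that of BNIP3L -0.67 to 0.0417. The treated minus untreated difference of EGLN1 was -0.00506 with the background estimated from the signals alone, -0.00164 without the arrays at 9 h and 18 h, and -0.0168 to 0.0518 with single arrays left out. The cause of these changes was not tested.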
